A study of Mus musculus with 2 samples.

Results

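The secreted mucosal defence proteins and mucins described here are 10 genes, Dmbt1, Pigr, Lcn2, Ltf, Sftpd, Muc1, Muc4, Muc15, Tff3 and Cp, picked by symbol from a comparison of luminal Venus High with luminal Venus Low mammary epithelial cells. Every probe set that the platform annotation pairs with one of these symbols alone was taken. This gave 4 probe sets of 4 genes, Dmbt1, Sftpd, Muc4 and Tff3, out of 29338 probe sets and 13869 named genes in all. The other 6 genes, Pigr, Lcn2, Ltf, Muc1, Muc15 and Cp, are not analysed here. The genes were chosen with values of this same comparison known, so their values below are a description and carry no test.

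The cells came from adult virgin female mice, 5 months old and on an FVB background, in which 1 allele of Tbx3 carries the gene for the fluorescent protein Venus in place of Tbx3. All cells of both populations are therefore heterozygous for Tbx3, and Venus fluorescence reports the activity of the endogenous Tbx3 locus. Mammary cells of 3 mice were pooled, dead cells, CD45+ cells and stromal cells were gated out, and luminal cells were recognised by CD24 and CD49f. From these, 200000 luminal cells with high Venus signal and 200000 with a low or absent signal were sorted, and the RNA of each population was hybridized on 1 array. With 1 array per population there are 0 replicates, and the spread between animals or pools is unknown. In such bulk samples fewer cells that express a gene and less of its RNA per cell cannot be told apart.

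Mucosal surfaces and exocrine glands, the mammary gland among them, coat and protect their lumen with secreted proteins and mucins. Dmbt1 is a secreted scavenger receptor that binds bacteria and mucosal proteins, and Sftpd, surfactant protein D, is a collectin that recognises microbial sugars. Pigr carries polymeric immunoglobulins across the epithelium into milk and other secretions. Lcn2 and Ltf withhold iron from bacteria, by binding siderophores and ferric iron respectively, and Cp, ceruloplasmin, is a copper-containing ferroxidase. Muc1, Muc4 and Muc15 are membrane-bound mucins, long and heavily glycosylated proteins of the apical surface, and Tff3 is a trefoil peptide that is secreted together with mucus.

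The values are log2 array signals, and the lowest possible value is 3.32, the log2 of a signal of 10, which was taken as a floor. Where 1 of the 2 signals lies there, the difference is only a lower bound, and where both do there is none. No probe set in the table (0 of 29338) is lower in Venus High cells. In Venus High cells 12968 probe sets were higher, and the other 16370 gave no signal over the floor in either population, so any gene above the floor in this table is higher in Venus High cells by construction. Why a gene has no value is not known here. It may be lower where Venus is high, or no probe set may be annotated to it only. To be counted as higher, a gene needed a log2 difference of 2 or more, which is 4-fold, together with a signal of 100 or more in Venus High cells.

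Marker genes were read as a check of the sort and of the labelled cell type. For genes above the floor the size of a difference was open to this check, but its direction was fixed by the table. Tbx3 had a log2 signal of 8.72 where Venus was high and 3.62 where it was low, and Esr1, the estrogen receptor alpha gene, had 10.62 and 7.64. Each is the probe set of highest mean. Other probe sets of Tbx3 gave 8.04 and 3.93, or the floor in both populations. Those of Esr1 gave 9.29 and 5.87, and 3.75 and the floor. Of 8 markers of hormone-sensing cells, the luminal cells that carry the estrogen and progesterone receptors, 6 were in the table and all 6 were counted as higher in Venus High cells. All 6 had a signal of 100 or more, and of all genes with such a signal 8.58% were counted. The luminal keratin gene Krt8 had 13.22 and 13.13. Of 7 basal, 7 leukocyte and 7 neutrophil markers, 5, 4 and 4 were in the table, and each of these stayed at the floor in both populations, the neutrophil granule genes Elane and Mpo included. Of 6 stromal and endothelial markers, 4 were in the table and the highest signal among them was 11.1, that of Col1a1 in Venus High cells. A marker with more signal in Venus Low cells would not be in this table. The Venus Low population was therefore not checked for these other cell types. None of the 7 markers of alveolar progenitors, the other main luminal type, was in the table, so that type could not be checked.

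Dmbt1 was counted as higher in luminal Venus High cells. Its log2 signal was 11.83 in Venus High cells, a signal of 3639, and 3.32 in Venus Low cells, the floor. The transcript was thus well above the signal minimum in one population and not above the floor in the other. The log2 difference was at least 8.51. Of the 3847 genes with a signal of 100 or more, 53 gave only a floor signal in Venus Low cells, and Dmbt1 is 1 of these 53. The size of the difference depends on where the floor is set, since Venus Low cells give only a bound. With the floor raised to a signal of 32 the difference was 6.83, and with the floor at 100 it was 5.19, still more than the 2 required. Median centring of the arrays, which takes 0.66 off every difference in this table, left 7.85. This shift was taken from a table with 0 lower probe sets, so it is above 0 by construction. It does not measure a difference in scale between the arrays. Dmbt1 has 1 probe set in the table, whose ID ends in _a_at, a class designed to match several transcripts of the same gene. No other probe set of the gene gave a second reading, and the gene has no value when probe sets of this class are left out.

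Sftpd was above the floor in both populations but did not reach a signal of 100 in either. Its log2 signal was 5.60 in Venus High cells, against 3.41 in Venus Low cells, which are signals of 48.3 and 10.6. The Venus Low value lay just above the floor. The difference of 2.19 on the log2 scale, or 4.55-fold, was over the 4-fold threshold, yet Sftpd was not counted because of its low signal. With the floor at 32 the difference was 0.60, and with the floor at 100 both values were at the floor. After median centring the difference was 1.53, under the 4-fold threshold. In a table without lower probe sets such centring lowers every difference by construction, so this fall says nothing of the true scale. Among these settings the 4-fold difference of Sftpd was seen only with the floor and the scale as deposited. Of the 3331 genes in the table that were above the floor but under a signal of 100, 121 (3.63%) passed the 4-fold threshold in the same way, and without any signal minimum 3.25% of all genes did.

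Muc4 and Tff3 were at the floor in both populations, so neither has a difference. Muc4 had a log2 signal of 3.32 in Venus High cells and the same in Venus Low cells. Tff3 also had 3.32 in both. In the table as a whole, 6691 of 13869 genes (48.2%) were at the floor in both populations, so 2 of 4 is close to that background. Each of these genes was read by 1 probe set, and a signal at the floor says that this probe set gave none above it, not that the transcript was absent.

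**Figure D1:**
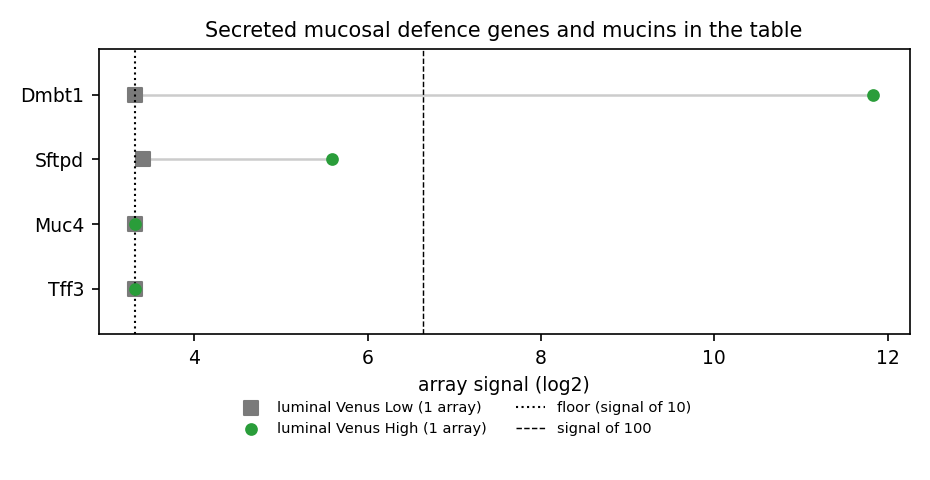
On the horizontal axis, the log2 array signal of Dmbt1, Sftpd, Muc4 and Tff3, 1 probe set each, with green circles for luminal Venus High and grey squares for luminal Venus Low cells. Each population has 1 array. A signal of 10, the floor, is drawn as a dotted line and a signal of 100 as a dashed line. Dmbt1 runs from the floor to 11.83, Sftpd ends at 5.60, left of the dashed line, and both values of Muc4 and of Tff3 lie at the floor.

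Over the 4 genes, 1 of 4 was counted as higher by 4-fold or more, where 330 of the 13869 genes in the table (2.38%) were. Of the genes that reached a signal of 100, which among the 4 was Dmbt1 alone, 8.58% were counted. Since the 4 genes were picked with these values known, nothing can be read from the difference between these shares. The 4 genes did not behave alike. Dmbt1 had a bound of 8.51 on the log2 scale, Sftpd 2.19 near the floor, and the mucin and the trefoil peptide gene gave no signal above the floor.

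**Figure D2:**
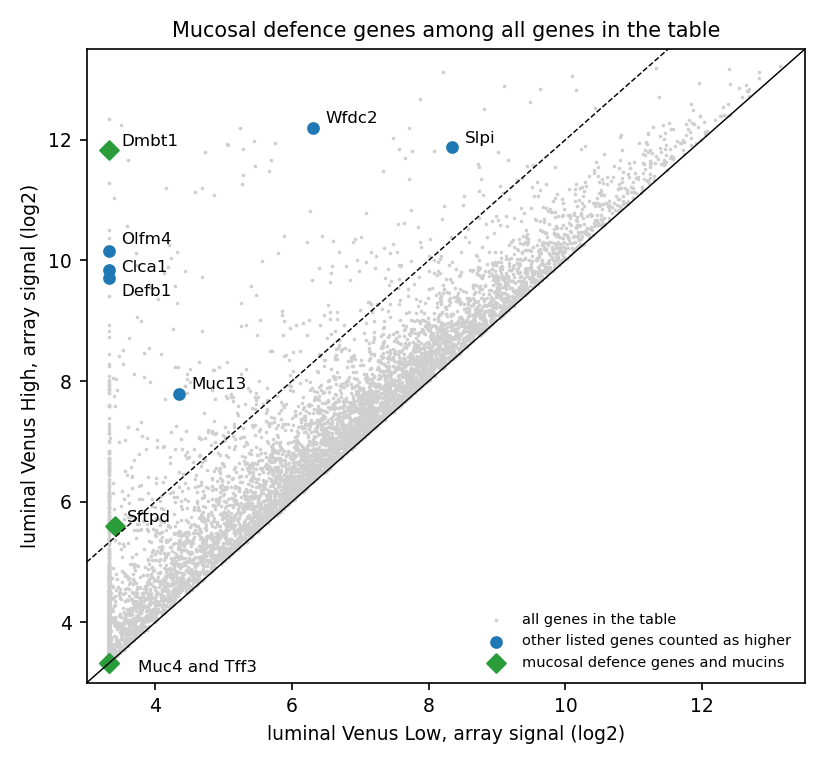
Array signal (log2) in luminal Venus High cells (vertical axis) against luminal Venus Low cells (horizontal axis) for the 13869 genes in the table (grey points), with 1 array per population. Green diamonds are Dmbt1, Sftpd, Muc4 and Tff3, blue circles are the other listed mucosal genes counted as higher, the solid line marks equal signals and the dashed line a 4-fold difference. No point lies below the solid line because the table holds 0 probe sets that are lower in Venus High cells.

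To place these genes among others of the same functions, 8 lists with 100 further genes were set beside them. Of the 100 genes, 62 were in the table and 38 are not analysed here. Of the 62, 33 (53.2%) were at the floor in both populations, against 48.2% of all genes. Of the 62, 6 (9.68%) were counted as higher in Venus High cells, where 2.38% of all genes in the table were. Of these 6, 5 reached a signal of 100 in Venus High cells only. The lists are not independent evidence, since a gene table of the study with Dmbt1, Olfm4, Clca1, Defb1 and Wfdc2 in it had been read when they were written, so nothing is read from these shares.

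Of the 6 genes, 3 belong to the antimicrobial and acute-phase secreted proteins, a group whose functions Lcn2 and Ltf share. This list has 28 genes, of which 16 were in the table, 9 were at the floor in both populations and 3 were counted as higher. Defb1, an epithelial beta-defensin, had log2 signals of 9.71 in Venus High cells and of 3.32, the floor, in the other population. The difference was at least 6.39, and at least 5.92 on its other probe set, also at the floor in Venus Low cells. Wfdc2, a secreted protein with WAP domains, had 12.20 and 6.31, a difference of 5.89. Slpi, a secreted inhibitor of leukocyte proteases with the same type of domain, had 11.88 and 8.34, a difference of 3.54. Wfdc2 and Slpi were above the floor in both populations, and with the floor at 100 their differences were at least 5.56 for Wfdc2, whose Venus Low signal is then under the floor, and 3.54 for Slpi. Reg3g, an antimicrobial lectin, had 5.91 and the floor, a difference of at least 2.59. Like Sftpd, it was not counted because its signal was under 100, but its difference is only a bound. The 9 genes at the floor in both populations included lysozyme, Lyz1 and Lyz2, lactoperoxidase, Lpo, and the cathelicidin gene Camp.

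Of the goblet-cell and trefoil list, 7 of 10 genes were in the table, 4 were at the floor in both populations and 2, Olfm4 and Clca1, reached a signal of 100. Both were counted as higher and, like Dmbt1, gave only floor signals in Venus Low cells. Olfm4, a secreted glycoprotein of gut epithelium, had a log2 signal of 10.16 in Venus High cells, a difference of at least 6.84. Clca1, a secreted protein of goblet cells, had 9.85 on one probe set, a difference of at least 6.53, and 4.37 on another, a difference of at least 1.04. Neither probe set was above the floor in Venus Low cells, so both differences are bounds, and the second lies under the 4-fold threshold. Spdef, a transcription factor of goblet cells, had 5.40 and the floor. Tff2, the other trefoil gene in the table, was at the floor in both populations, as was Agr2, which folds mucins in the endoplasmic reticulum.

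Among the other mucins, 9 of 13 genes were in the table and 5 of these, the gel-forming mucin genes Muc2, Muc5ac and Muc5b among them, were at the floor in both populations, as Muc4 was. Muc13, a membrane-bound mucin, was the 1 gene of the list with a signal of 100 or more, and it was counted as higher. Its log2 signal was 7.79 in Venus High cells against 4.35 in Venus Low cells, a difference of 3.44. On its other probe set they were 5.61 and the floor, a difference of at least 2.28. With the floor at 100 the difference was 1.15, which ends the 4-fold call. Muc16, another membrane-bound mucin, had 5.37 and the floor.

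Of the 5 remaining lists, 0 genes were counted as higher. With 2.38% of all genes in the table counted, lists of this size may hold none, so nothing is read from this count. The collectins, ficolins and surfactant proteins, the group of Sftpd, had 8 of 10 genes in the table, and 0 had a signal of 100 or more. Sftpc, another surfactant protein gene, had 5.34 against 3.95, while its other probe set was at the floor in both populations. Sftpa1, Mbl1 and Mbl2 were at the floor in both populations. Of the immunoglobulin transport genes, the group of Pigr, 5 of 6 were in the table, and Fcgrt, the neonatal Fc receptor gene, had 7.57 and 6.53. Of the scavenger receptors and lectins, the group of Dmbt1, 6 of 9 were in the table. The scavenger receptor genes Marco, Msr1, Cd5l and Ssc5d were at the floor in both populations. Lgals3, the gene of galectin-3, had 12.26 and 11.88, a difference of 0.38. The direction of so small a difference is fixed by the table and is not settled here. Of the iron and copper genes, the group of Ltf and Cp, 8 of 14 were in the table. The copper transporter gene Atp7a had 8.11 and 7.69, a difference of 0.42 whose direction is likewise fixed by the table. On its other probe set it had 5.72 and 4.46, a difference of 1.26. Atp7b had 6.26 and the floor. Its other probe sets gave 3.56 and the floor, or the floor in both populations. Of the transcription factors linked to these genes, 3 of 10 were in the table, with 9.34 and 8.91 for Elf3 and 12.54 and 12.30 for Klf4, differences of 0.43 and 0.24 whose direction is not settled either.

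**Figure D3:**
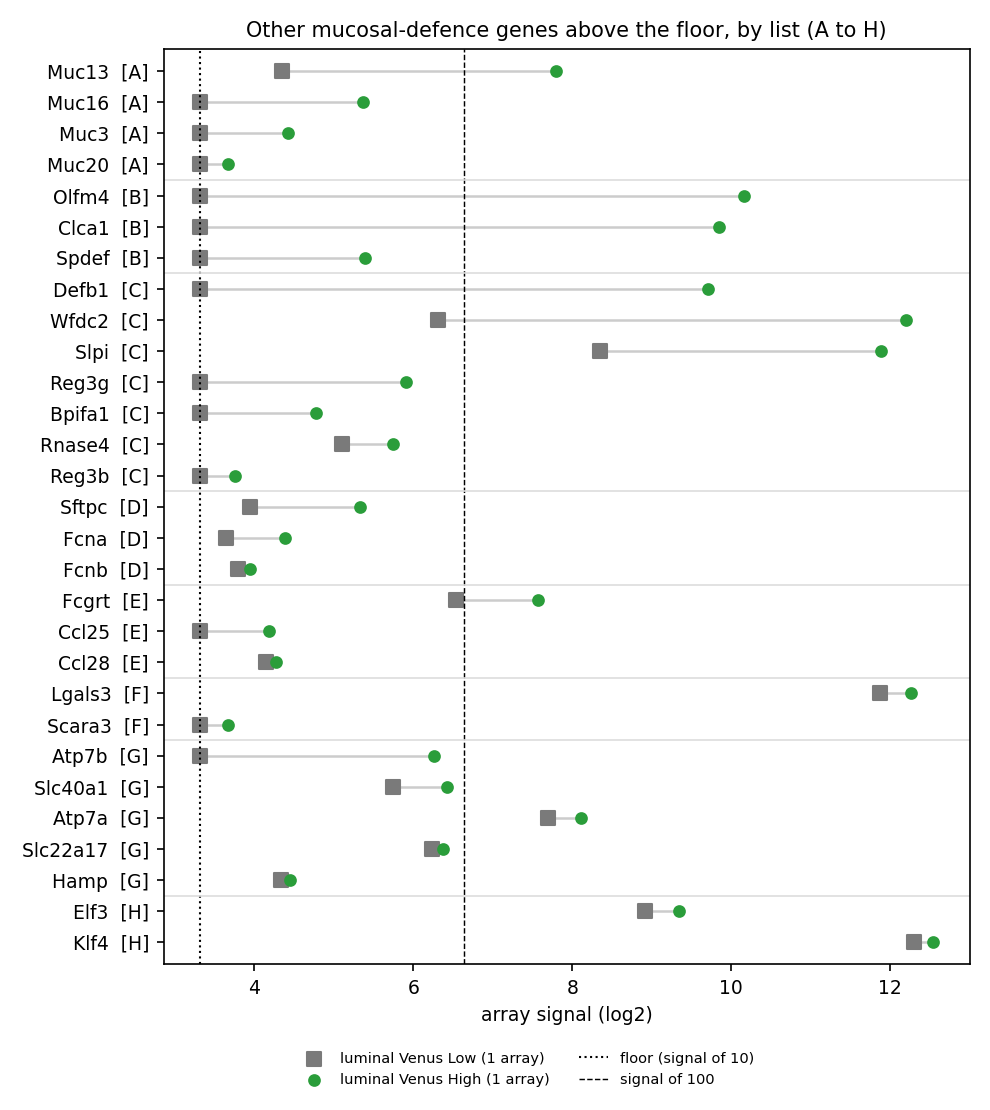
On the horizontal axis, the log2 array signal of the 29 listed genes above the floor on at least 1 array, with green circles for luminal Venus High and grey squares for luminal Venus Low cells, each from 1 array. Letters give the list: A, other mucins. B, trefoil and goblet-cell genes. C, antimicrobial and acute-phase proteins. D, collectins, ficolins and surfactant proteins. E, immunoglobulin transport. F, scavenger receptors and lectins. G, iron and copper handling. H, transcription factors. The dotted line marks the floor and the dashed line a signal of 100, and Olfm4, Clca1, Defb1, Wfdc2, Slpi and Muc13 cross at least 2 log2 units and end to the right of the dashed line.

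**Figure D4:**
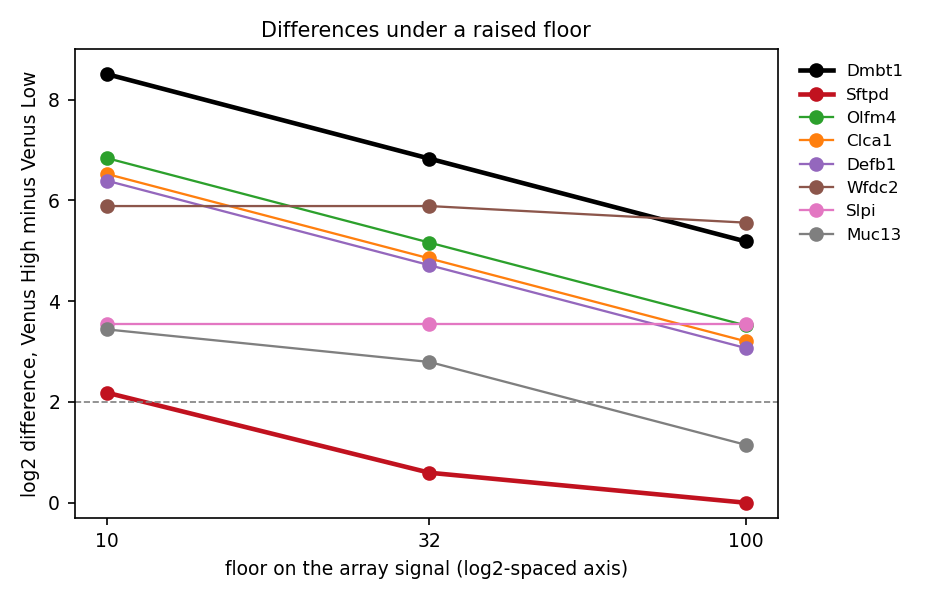
Log2 difference between luminal Venus High and Venus Low cells (vertical axis) with the floor at a signal of 10, 32 or 100 (horizontal axis, log scale), for Dmbt1, Sftpd and the 6 other listed genes counted as higher, 1 array per population. The dashed line marks a 4-fold difference. Dmbt1 falls from 8.51 to 5.19 and Sftpd from 2.19 to 0, while Slpi stays at 3.54 because both of its signals lie above 100.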

How the data were processed

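RNA of the 2 sorted populations was hybridized on 1 Affymetrix GeneChip mouse genome array each, from 250 ng of total RNA with an integrity number above 9.4. Per the labels and methods, the authors took the log2 of the signals and used BRB Array software to normalize and centre each sample. MAS5 is named in the submitters' notes. The deposited values are on this log2 scale, and the sources used here do not give the reference of the normalization. Of the probe sets, the platform annotation pairs 22223 with 1 symbol, 602 with several and 6513 with none, and symbols were updated by gene identifier in RefSeq (GRCm38.p6). A gene was read from its probe set of highest mean log2 value. Between probe sets of a gene, the differences had a pooled SD of 0.31 (1062 genes that have 2 or more probe sets over a signal of 100), which says nothing of animals. The genes and lists were chosen with earlier results of these data known. The rule named the 10 genes, listed genes that passed the 4-fold count or else had the highest signal, and cell type markers. Further listed genes were named after their values were seen. The number of arrays limits the precision, and no test was run. Results were recomputed with median centring, with quantile normalization, with a floor of 32 or 100, with the median over the probe sets of each gene, with a signal minimum of 50, 200 or none, with a 2-fold or 8-fold threshold, and with only those probe sets whose ID has no _x, _s or _a before its ending. The counting was tested on simulated data in which only genes with a Venus Low signal of 100 or more were raised. It was not tested for genes at the floor in Venus Low cells, such as Dmbt1. Python 3.11.15, numpy 2.4.6, pandas 2.3.3 and matplotlib 3.10.9 were used.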

Additional observations from a re-analysis of the deposited data

How the results depend on the processing

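Without a signal minimum, 2 of the 4 genes (and 2 of the 4 probe sets) were counted as higher instead of 1, since Sftpd then passed, and 10 of the 100 further listed genes instead of 6. With the _x_at, _s_at and _a_at classes of probe sets left out, the count for the 4 genes and probe sets was 0, because the probe set of Dmbt1 is of this class. The count stayed at 1 under each of the other alternatives, and that of the listed genes lay between 5 and 8. The difference of Dmbt1 was 8.16 after quantile normalization and that of Sftpd 1.35. Like median centring, this method lowers differences by construction in a table without lower probe sets. The signs of the differences could hardly change, since the table holds no lower probe sets, and are no sign of stability. Counts of genes lower in Venus High cells had been planned and have no value here, since the table holds 0 such probe sets. No paired analysis was possible because there is 1 array per population, and no library could be left out for the same reason.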
